A study of Rattus norvegicus with 16 samples.

Results

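The genes described here encode the protein machinery of pre-mRNA splicing and the abundant RNA-binding proteins of the nucleus. A gene was taken when its rat symbol starts with Hnrnp, Sf3a, Sf3b, Snrp or Prpf, or with Srsf and a digit, and when a probe of it was well above background in at least 6 of 32 channel measurements. Probes were given symbols through their RefSeq accession. This yielded 54 genes of the 20395 tested: 16 Hnrnp, 12 Prpf, 10 Srsf, 8 Sf3a or Sf3b and 8 Snrp genes. All 54 genes that carried such a symbol on the array passed the filter, 52 of them in all 32 channels. Prpf31 had the fewest channels, 16, and Srsf12 had 28. A further 19 protein-coding symbols of the rat annotation that fit the pattern, among them Hnrnpc, Snrpe, Snrpd3 and Srsf11, were not analysed here.

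The cells were primary hepatocytes of male Sprague Dawley rats, cultured in Williams Medium E. Starting 48 h after plating, cultures received 100 µM SQ1 for 48 h, or 30 µM pravastatin for 48 h, or were left untreated. SQ1 is known from hepatocyte work as squalestatin 1, an inhibitor of squalene synthase, and pravastatin is a statin that inhibits HMG-CoA reductase, further upstream in the same sterol pathway. Each of 16 two-colour arrays held 1 treated and 1 untreated culture, with 8 arrays per drug and 4 in each dye orientation. A value written as x ± y is the fitted log2 ratio of treated to untreated signal and its standard error, from 8 arrays a drug. Each gene is represented by its brightest probe unless another probe is named.

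As background, introns are removed by the spliceosome, which is built from small nuclear ribonucleoproteins (snRNPs) around U1, U2, U4, U5 and U6 RNA. The Snrp genes encode the Sm ring and U1 or U2 proteins, SF3a and SF3b hold the U2 snRNP on the branch point, and the Prpf proteins belong mostly to the later complexes and the catalytic core. SR proteins (Srsf) and heterogeneous nuclear ribonucleoproteins (hnRNPs) bind exons and introns and promote or repress the use of splice sites. Many of these proteins regulate their own transcripts through alternative exons that lead to decay of the message.

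Some facts touch all results. Same-numbered arrays of the 2 drugs share an untreated culture number, so the ratios of the 2 drugs over untreated cells are not independent of each other. They are given side by side, and the drugs are compared only by the difference of their ratios in 1 model. The main model has no term for a shared culture, so its standard errors for that difference treat all arrays as independent. Alternatives add replicate number as a block. Each slide held 1 drug, so drug and slide cannot be told apart when SQ1 is set against pravastatin, and the doses differ as well. In the deposited table of ratios each column matched the array that has its number but the opposite drug (correlation across probes 1) and matched its own label less well (0.579 to 0.641). Drug names below follow the scanner files. Which of the 2 sources names the drugs rightly was not tested. Were it the table, SQ1 and pravastatin would change places throughout, and each difference between them would change sign. Replicates are called biological by the submitters, and all 10 hepatocyte markers were well above background in all 32 channels.

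With SQ1, 32 of the 54 genes passed the threshold of an adjusted p under 0.05 (59.3%), against 63.9% of all genes tested. They were evenly divided, 16 higher (32.7% of all genes) and 16 lower (31.2% of all genes), and the median log2 ratio of the 54 was 0.02, against 0.01 over all genes. This division depended on the normalisation: with median centring in place of loess 22 were higher and 6 lower, and with Agilent's processed signals 20 were higher and 13 lower. The changes were small, with a median size of 0.111 against 0.129 over all genes. By the brightest probe of each gene, only 6 of the 54 (11.1%) were both called and changed at least 1.2-fold, against 26.7% of all genes. These were Hnrnpa1 and Hnrnpd upwards, and Hnrnph1, Prpf19, Srsf4 and Srsf5 downwards.

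With pravastatin, 17 of the 54 genes passed (31.5%), against 39.1% of all genes. Of these, 15 were higher and 2 lower, whereas 19.4% of all genes were called higher and 19.7% lower. The median ratio was 0.03, against 0.00 over all genes. A single gene, Hnrnpa1, was called and changed at least 1.2-fold, against 9.41% of all genes. When replicate number entered as a block, 4 (random) or 5 (fixed) genes were lower in place of 2. The count of higher genes was then 14 (random) or 22 (fixed) in place of 15. Calls over all genes were 7900 (random) or 9913 (fixed) in place of 7965. The count of higher genes rested on single arrays: it was 6 without pravastatin replicate 7 and 8 without pravastatin replicate 3. The count of lower genes was 4 without SQ1 replicate 8, and 1 without any one of SQ1 replicates 3, 5, 6 and 7 or pravastatin replicates 1, 3, 5, 7 and 8.

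By the threshold, 11 genes were called in both drug comparisons, 21 with SQ1 alone, 6 with pravastatin alone and 16 in neither, which does not test the difference between drugs. Of the 32 calls with SQ1, 11 held under each of 29 alternatives: Hnrnpd, Hnrnpf, Hnrnph1, Hnrnpu, Prpf38a, Sf3b4, Sf3b5, Snrpa, Srsf4, Srsf9 and Srsf10. Of the 17 with pravastatin, 3 held under each of them: Hnrnpa1, Prpf38a and Snrpd2. These alternatives are not independent of each other. They include leaving out each of the 16 arrays, and the deposited table nearly repeats the processed signals. Verbs of change below are used for genes that passed the threshold. The counts per family below stand against 32.7% of all genes called higher and 31.2% lower with SQ1. With pravastatin these shares were 19.4% and 19.7%. Whether a family differed from all genes was not tested.

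**Figure D1:**
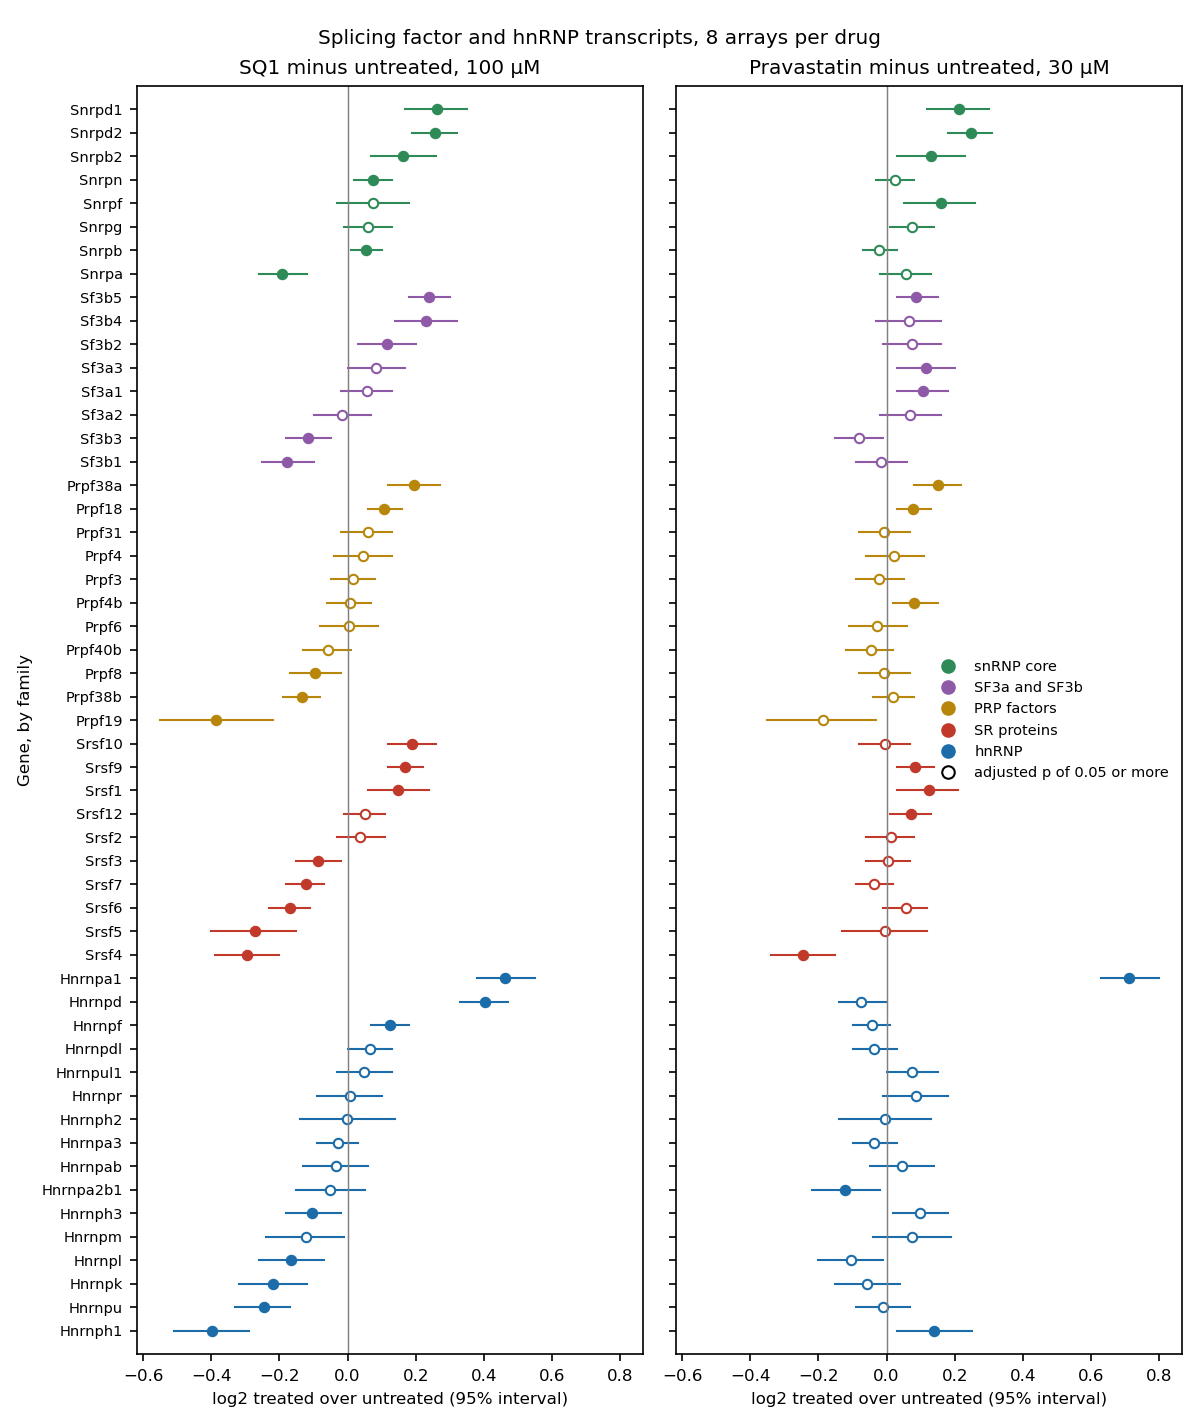
Log2 ratio of SQ1-treated (left) or pravastatin-treated (right) over untreated cells for 53 of the 54 genes, grouped by family, with 95% intervals from the model over 16 arrays. Filled points passed an adjusted p under 0.05. Hnrnpa1 stood farthest to the right with both drugs, and most other genes lay within 0.4 of zero.

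Among the snRNP proteins, 5 of 8 rose and 1 fell with SQ1, and 4 of 8 rose with pravastatin. Snrpd2, a subunit of the Sm ring that forms on the spliceosomal RNAs, had array ratios of 0.03 to 0.41 with SQ1 (median 0.30) and of 0.00 to 0.42 with pravastatin (median 0.30). Every array of both drugs was at or above zero, although treated and untreated intensities overlapped. The fitted rises were 0.26 ± 0.03 with SQ1 (adjusted p = 8.7e-07) and 0.25 ± 0.03 with pravastatin (adjusted p = 5.3e-06). Its partner in the ring, Snrpd1, rose by 0.26 ± 0.04 with SQ1 (adjusted p = 3.7e-05) and by 0.21 ± 0.04 with pravastatin (adjusted p = 0.00079, and 0.053 within the first scan day), in 7 of 8 arrays of either drug. The difference between the drugs was 0.01 for Snrpd2 (95% interval −0.08 to 0.10) and 0.05 for Snrpd1 (−0.08 to 0.18). Scaling the arrays to 1 spread ended the SQ1 calls of Snrpd1 (adjusted p = 0.075) and Snrpd2 (adjusted p = 0.086).

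Other Sm proteins moved less. Snrpf had a ratio of 0.07 ± 0.05 with SQ1 (adjusted p = 0.21) and rose by 0.16 ± 0.05 with pravastatin (adjusted p = 0.016), a call lost without pravastatin replicate 3 (adjusted p = 0.057) or 7 (adjusted p = 0.058). Snrpb rose by 0.06 ± 0.02 with SQ1 (adjusted p = 0.038), and any one of SQ1 replicates 3, 4, 6, 7 and 8 left out ended that call (adjusted p 0.065 to 0.10), as did scaling (adjusted p = 0.23). Snrpn, a tissue-restricted relative of Snrpb, rose by 0.08 ± 0.025 with SQ1 (adjusted p = 0.013), a call lost without SQ1 replicate 3 (adjusted p = 0.05), under median centring (adjusted p = 0.065) or with scaled arrays (adjusted p = 0.32). By its brightest probe Snrpg had ratios of 0.06 ± 0.03 and, with pravastatin, 0.07 ± 0.03, and neither passed. The SQ1 ratio was 0.21 under median centring (adjusted p = 0.0016). The dimmer probes of Snrpg, given below, rose with both drugs.

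The RNA-recognition proteins of U1 and U2 went different ways. Snrpa, the A protein of the U1 snRNP, had array ratios of −0.35 to −0.08 with SQ1, with a median of −0.18, and all 8 arrays were below zero. It fell by 0.19 ± 0.03 (adjusted p = 8.4e-05). With pravastatin its arrays ran from −0.06 to 0.27, 4 above and 4 below zero, and the ratio was 0.06 ± 0.03 (adjusted p = 0.21). Snrpb2, its relative in the U2 snRNP, rose by 0.16 ± 0.05 with SQ1 (adjusted p = 0.0051) and by 0.13 ± 0.05 with pravastatin (adjusted p = 0.034). The pravastatin call of Snrpb2 was lost without pravastatin replicate 1 or 7 (adjusted p = 0.12 each), and scaling ended both calls (adjusted p = 0.41 with SQ1 and 0.077 with pravastatin).

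The SF3 complexes split by subunit with SQ1. Of 8 genes, 3 rose and 2 fell with SQ1, and 3 rose with pravastatin. Sf3b5, a small subunit of SF3b, lay between 0.17 and 0.33 on the 8 SQ1 arrays (median 0.23) and between −0.06 and 0.28 on the pravastatin arrays (median 0.10). It rose by 0.24 ± 0.03 with SQ1 (adjusted p = 5.7e-07) and by 0.09 ± 0.03 with pravastatin (adjusted p = 0.020). Without pravastatin replicate 1 or 7 the second call was lost (adjusted p 0.060 to 0.082). Sf3b4, an RNA-binding subunit, had SQ1 ratios of 0.07 to 0.46 (median 0.21) and pravastatin ratios of −0.12 to 0.24 (median 0.09). It rose by 0.23 ± 0.04 with SQ1 (adjusted p = 0.00015), with all 8 arrays above zero.

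Sf3b2, which also contacts the RNA near the branch point, rose by 0.12 ± 0.04 with SQ1 (adjusted p = 0.017), a call lost without SQ1 replicate 3 or 8 (adjusted p 0.051 to 0.067) and with scaled arrays (adjusted p = 0.20). Sf3b1, the large scaffold that contacts the branch point, had SQ1 ratios of −0.28 to −0.04 (median −0.21), all 8 below zero. It fell by 0.18 ± 0.04 (adjusted p = 0.00032), and stood at −0.02 ± 0.04 with pravastatin (adjusted p = 0.78). Sf3b3, another scaffold subunit, fell by 0.12 ± 0.03 with SQ1 (adjusted p = 0.0043). Both SQ1 calls were lost with median centring, Sf3b1 at −0.05 (adjusted p = 0.33) and Sf3b3 at −0.06 (adjusted p = 0.40). They were also lost with arrays scaled to 1 spread (adjusted p = 0.25 for Sf3b1 and 0.36 for Sf3b3). In SF3a, Sf3a1 rose by 0.11 ± 0.03 with pravastatin (adjusted p = 0.020) and Sf3a3 by 0.11 ± 0.04 (adjusted p = 0.037), while with SQ1 they stood at 0.06 ± 0.03 and 0.08 ± 0.04. Leaving out pravastatin replicate 3 or 7 ended both pravastatin calls (adjusted p of 0.055 to 0.072 for Sf3a1 and 0.055 to 0.13 for Sf3a3 over the arrays that did so). The others were pravastatin replicate 2 for Sf3a1, and 1 and 8 for Sf3a3. Median centring ended the call of Sf3a1 (adjusted p = 0.19), and scaling that of Sf3a3 (adjusted p = 0.095). With pravastatin the second probe of Sf3a1 was at 0.05 ± 0.06 (adjusted p = 0.52). That of Sf3a3 was at 0.03 ± 0.03 (adjusted p = 0.46), but rose by 0.13 ± 0.03 with SQ1 (adjusted p = 0.0019). Neither differed from its brightest probe with pravastatin (adjusted p = 0.51 and, for Sf3a3, 0.31). Sf3a2 stood at −0.01 ± 0.04 with SQ1 and 0.07 ± 0.04 with pravastatin.

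Among the 12 Prpf genes, 2 rose, 3 fell and 7 did not pass with SQ1, and 3 rose and 9 did not pass with pravastatin. Prpf38a, which joins the spliceosome before activation, had ratios of 0.06 to 0.34 on the SQ1 arrays (median 0.18) and of 0.07 to 0.23 on the pravastatin arrays (median 0.13). All 16 arrays were above zero. It rose by 0.19 ± 0.03 with SQ1 (adjusted p = 5.7e-05) and by 0.15 ± 0.03 with pravastatin (adjusted p = 0.0017). Prpf18, a factor of the second catalytic step, rose by 0.11 ± 0.02 with SQ1 (adjusted p = 0.00071) and by 0.08 ± 0.02 with pravastatin (adjusted p = 0.014, and 0.086 under median centring).

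Prpf19, the ubiquitin ligase that gives the Prp19 complex its name, had the largest fall of its family. Its SQ1 arrays ran from −0.86 to 0.02 (median −0.44), 7 of 8 below zero, and its pravastatin arrays from −0.45 to 0.10 (median −0.21). It fell by 0.38 ± 0.08 with SQ1 (adjusted p = 0.00024, and 0.058 with arrays scaled to 1 spread). With pravastatin its ratio of −0.19 ± 0.08 did not pass (adjusted p = 0.063), but did with the fixed replicate block (adjusted p = 0.0088) and with scaled arrays (adjusted p = 0.033). Prpf8, the protein at the heart of the catalytic core, fell by 0.10 ± 0.04 with SQ1 (adjusted p = 0.028). That call was lost without SQ1 replicate 1, 3 or 7 (adjusted p 0.072 to 0.097), under median centring (adjusted p = 0.66), with scaled arrays (adjusted p = 0.31) or with Agilent's processed signals (adjusted p = 0.061). Prpf31, a tri-snRNP protein, stood at 0.06 ± 0.035 with SQ1 and −0.01 ± 0.035 with pravastatin. Without SQ1 replicate 8 its SQ1 ratio passed (adjusted p = 0.017). Prpf38b was below zero on all 8 SQ1 arrays, from −0.35 to −0.02 (median −0.13, adjusted p = 0.00037, and 0.076 under median centring). Prpf4b, a kinase of the spliceosome, rose by 0.08 ± 0.03 with pravastatin (adjusted p = 0.043), a call lost without any one of pravastatin replicates 1, 2, 3, 6, 7 and 8 (adjusted p 0.068 to 0.12). Prpf3, Prpf4, Prpf6 and Prpf40b passed with neither drug, though Prpf4 stood at 0.12 with SQ1 under median centring (adjusted p = 0.014).

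Of the 10 SR protein genes, 3 rose and 5 fell with SQ1, and 3 rose and 1 fell with pravastatin. Srsf4 fell with both drugs. Its SQ1 arrays ran from −0.38 to −0.14 (median −0.31), and treated intensities of 13.80 to 14.00 (log2 scale) lay below untreated intensities of 14.10 to 14.25 without overlap. On the pravastatin arrays it ran from −0.43 to 0.03 (median −0.30), with 7 of 8 below zero. The fitted falls were −0.30 ± 0.045 with SQ1 (adjusted p = 1.4e-05) and −0.24 ± 0.045 with pravastatin (adjusted p = 0.0003). Within the first scan day the pravastatin ratio of Srsf4 was −0.09 (adjusted p = 0.14), and within the second −0.40.

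Srsf5 and Srsf6, close relatives of Srsf4, fell with SQ1. Srsf5 had SQ1 ratios of −0.57 to 0.20 (median −0.30), and pravastatin ratios of −0.23 to 0.58 (median −0.11). It fell by 0.27 ± 0.06 with SQ1 (adjusted p = 0.00061, and 0.32 with arrays scaled to 1 spread), with 7 of 8 arrays below zero. Srsf6 ran from −0.33 to −0.03 on the SQ1 arrays (median −0.13), all 8 below zero, and from −0.18 to 0.21 on the pravastatin arrays. It fell by 0.17 ± 0.03 with SQ1 (adjusted p = 7.9e-05), and the call was lost when arrays were centred on the median (adjusted p = 0.16) or scaled (adjusted p = 0.068). With pravastatin it stood at 0.06 ± 0.03 (adjusted p = 0.15, and 0.041 with the fixed replicate block).

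The small SR proteins Srsf3 and Srsf7, which also take part in mRNA export, had slight falls by their brightest probes. A second probe of Srsf3, given below, stood lower with SQ1, at −0.48 (adjusted p = 1.3e-11). Srsf7 fell by 0.12 ± 0.03 with SQ1 (adjusted p = 0.00045, and 0.82 with median centring). Srsf3 fell by 0.09 ± 0.03 with SQ1 (adjusted p = 0.025) by its brightest probe, but had a ratio of 0.01 with median centring, so that its direction turned. Its call was also lost without SQ1 replicate 1, 2 or 8 (adjusted p 0.05 to 0.10), with the processed signals (adjusted p = 0.15) and with scaled arrays (adjusted p = 0.24). Srsf2 stood at 0.04 ± 0.03 with SQ1 and 0.01 ± 0.03 with pravastatin, and passed with neither.

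Srsf10, Srsf9 and Srsf1 rose with SQ1. Srsf10, a splicing repressor when dephosphorylated, had SQ1 ratios of 0.04 to 0.37 (median 0.17), and its treated intensities of 12.25 to 12.46 lay above the untreated 12.02 to 12.20. It rose by 0.19 ± 0.03 (adjusted p = 8.5e-05), and with pravastatin its arrays ran from −0.11 to 0.15. Srsf9 rose by 0.17 ± 0.03 with SQ1 (adjusted p = 1.2e-05) and by 0.08 ± 0.03 with pravastatin (adjusted p = 0.015, 0.061 without pravastatin replicate 3, 0.069 under median centring and 0.051 when scaled). Srsf1, the prototype of the family, rose by 0.15 ± 0.04 with SQ1 (adjusted p = 0.0057) and by 0.12 ± 0.04 with pravastatin (adjusted p = 0.029). Scaling ended the SQ1 call (adjusted p = 0.07). With the mean of its 2 probes neither call remained (adjusted p = 0.26 and, with pravastatin, 0.37), and the pravastatin call was lost without any one of pravastatin replicates 2, 4, 5, 7 and 8 (adjusted p 0.053 to 0.11). Srsf12 rose by 0.07 ± 0.03 with pravastatin in 8 of 8 arrays (adjusted p = 0.048), a call lost when any one of 9 arrays was left out (SQ1 replicates 1, 4 and 7, and pravastatin replicates other than 1 and 6; adjusted p 0.053 to 0.13), and also with the random replicate block (adjusted p = 0.071) or median centring (adjusted p = 0.55).

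By the brightest probe of each gene, the 16 hnRNP genes held the largest rise with either drug and the largest fall with SQ1. With SQ1, 3 rose, 5 fell and 8 did not pass, and with pravastatin 2 rose, 1 fell and 13 did not pass. Hnrnpa1, which binds exonic silencers and favours exon skipping, had ratios of 0.26 to 0.70 on the SQ1 arrays (median 0.44) and of 0.39 to 0.89 on the pravastatin arrays (median 0.76). All 16 arrays were above zero. With pravastatin the treated intensities of 14.93 to 15.65 lay above the untreated 14.37 to 14.91 without overlap, while with SQ1 the groups overlapped (14.81 to 15.45 treated, 14.46 to 14.91 untreated). It rose 1.38-fold with SQ1 (0.46 ± 0.04, adjusted p = 1.7e-08) and 1.64-fold with pravastatin (0.71 ± 0.04, adjusted p = 2.5e-10). With arrays scaled to 1 spread the SQ1 call was lost (0.36, adjusted p = 0.086). The rat annotation lists 50 pseudogenes of Hnrnpa1, and whether RNA of such copies adds to its probes was not tested.

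Hnrnpd, also called AUF1, binds AU-rich elements and directs the decay of messages. Its SQ1 ratios ran from 0.15 to 0.54 (median 0.46), and the treated intensities of 11.22 to 11.46 lay above the untreated 10.88 to 11.09. On the pravastatin arrays it ran from −0.19 to 0.06 (median −0.08), with 7 of 8 below zero. It rose 1.32-fold with SQ1 (0.40 ± 0.03, adjusted p = 6.8e-09) and stood at −0.07 ± 0.03 with pravastatin (adjusted p = 0.094). With scaled arrays the pravastatin ratio of −0.13 passed (adjusted p = 0.034). Hnrnpdl, its paralogue, stood at 0.07 ± 0.03 with SQ1 (adjusted p = 0.074) and −0.04 ± 0.03 with pravastatin. The SQ1 ratio of Hnrnpdl passed with median centring (adjusted p = 0.042), the processed signals (adjusted p = 0.039), the fixed replicate block (adjusted p = 0.016) and without SQ1 replicate 8 (adjusted p = 0.027).

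Hnrnph1, which binds runs of G, had the largest fall of the 54 genes with SQ1 by the brightest probe of each gene. Second probes of Hnrnpa3 and Srsf3, given below, stood lower, at −0.52 and −0.48. The SQ1 arrays of Hnrnph1 ran from −0.63 to −0.07 (median −0.37), all 8 below zero. Its pravastatin arrays ran from −0.14 to 0.37 (median 0.19), with 6 of 8 above zero. It fell by 0.40 ± 0.05 with SQ1 (adjusted p = 2.4e-06). With pravastatin it was higher by 0.14 ± 0.05 (adjusted p = 0.042), but that call was lost without any one of pravastatin replicates 1, 3, 4, 6, 7 and 8 (adjusted p 0.064 to 0.12), with the processed signals (adjusted p = 0.083) and with the mean of its 2 probes (adjusted p = 0.19). Its relatives differed: Hnrnpf rose by 0.12 ± 0.03 with SQ1 (adjusted p = 0.00035), on 5 of 8 arrays, and Hnrnph3 fell by 0.10 ± 0.04 (adjusted p = 0.022), while Hnrnph2 stood at 0.00 ± 0.07 with SQ1 and with pravastatin. The call of Hnrnph3 was lost without SQ1 replicate 8 (adjusted p = 0.090), with the processed signals (adjusted p = 0.067), median centring (adjusted p = 0.36) and scaling (adjusted p = 0.085).

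Hnrnpu, Hnrnpk and Hnrnpl fell with SQ1. Hnrnpu, a scaffold protein that binds RNA and chromatin, ran from −0.44 to −0.13 (median −0.22), and its treated intensities of 13.40 to 13.51 lay below the untreated 13.55 to 13.92. It fell by 0.25 ± 0.04 with SQ1 (adjusted p = 1.7e-05) and stood at −0.01 ± 0.04 with pravastatin (arrays −0.16 to 0.15). Hnrnpk, which binds C-rich RNA, ran from −0.44 to −0.03 with SQ1 (median −0.16), all 8 arrays below zero, and from −0.23 to 0.13 with pravastatin. It fell by 0.22 ± 0.05 with SQ1 (adjusted p = 0.00039), and Hnrnpl, which binds CA repeats, by 0.17 ± 0.04 (adjusted p = 0.0031). Both calls were lost with median centring (Hnrnpk at −0.04, adjusted p = 0.51; Hnrnpl at −0.02, adjusted p = 0.84) and with scaled arrays (adjusted p = 0.071 for Hnrnpk and 0.25 for Hnrnpl). Hnrnpl stood at −0.10 ± 0.04 with pravastatin (adjusted p = 0.074, and 0.0017 with the fixed replicate block).

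By its brightest probe Hnrnpm stood at −0.12 ± 0.055 with SQ1 (adjusted p = 0.061). It passed with the random (adjusted p = 0.040) or fixed (adjusted p = 0.0011) replicate block. It also passed without SQ1 replicate 1, SQ1 replicate 6 or pravastatin replicate 1 (adjusted p 0.014 to 0.034). Its second probe fell by 0.14 ± 0.03 with SQ1 (adjusted p = 0.0023), and the mean of its probes passed (adjusted p = 0.00028). Hnrnpa2b1, the close relative of Hnrnpa1, stood at −0.05 ± 0.05 with SQ1 and fell by 0.12 ± 0.05 with pravastatin (adjusted p = 0.047). That call was lost when any one of 11 of the 16 arrays was left out (adjusted p 0.051 to 0.17; it held without SQ1 replicates 2, 4 and 8 and pravastatin replicates 4 and 6), under median centring (adjusted p = 0.39) and with the processed signals (adjusted p = 0.066). Hnrnpab and Hnrnpa3 did not pass by their brightest probes. Both turned direction with SQ1 under median centring, to 0.19 and 0.15, against −0.03 and −0.03 after loess. There both passed (adjusted p = 0.0052 and 0.0027). The second probe of Hnrnpab fell with SQ1 (−0.11, adjusted p = 0.013), as did the mean of its probes (−0.07, adjusted p = 0.031). On the pravastatin arrays its brightest probe was below zero in 1 dye orientation and above zero in the other. Hnrnpr (0.01 ± 0.045 with SQ1, 0.09 ± 0.045 with pravastatin) passed with both drugs under median centring, at 0.13 and 0.14 (adjusted p = 0.034 and 0.033). Hnrnpul1 stood at 0.05 ± 0.04 with SQ1 and 0.08 ± 0.04 with pravastatin.

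**Figure D2:**
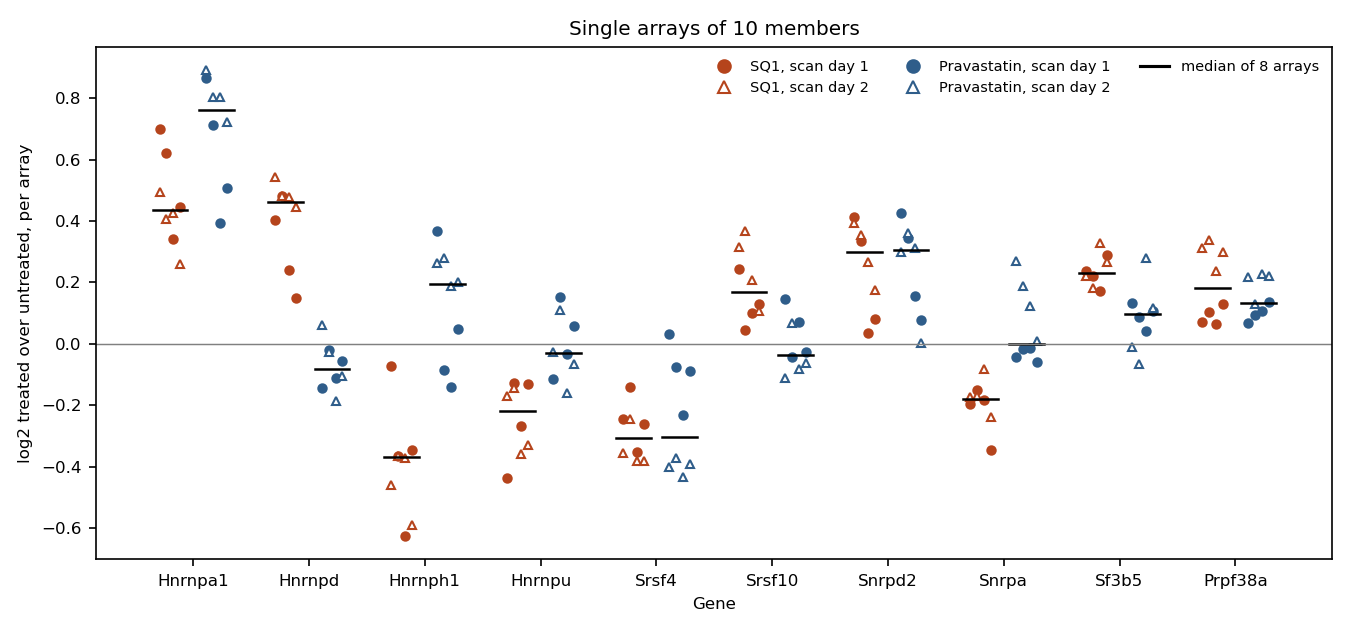
Log2 ratio of treated over untreated cells on each array for 10 of the genes, with SQ1 arrays left of pravastatin arrays, the 2 scan days as different symbols and a bar at the median of 8 arrays. Hnrnpd and Srsf10 lay above zero with SQ1 and around zero with pravastatin, while Snrpd2 and Prpf38a overlapped between the drugs.

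The direct contrast of the drugs called 14 of the 54 genes (25.9%), 5 higher and 9 lower with SQ1 than with pravastatin, against 38% of all genes (18.5% higher and 19.6% lower). Under either form of replicate block 8 genes were higher, and 13 (random) or 14 (fixed) were lower. With arrays scaled to 1 spread 1 gene was higher and 5 lower. Calls over all genes moved too, from 7760 to 9741 (random block), 9729 (fixed block) and 4313 (scaled arrays). Hnrnpd differed most upwards, at 0.48 ± 0.05 (95% interval 0.38 to 0.58, adjusted p = 3e-07), and Hnrnph1 most downwards, at −0.54 ± 0.07 (−0.69 to −0.38, adjusted p = 1.3e-05). Both held under each of 29 alternatives, as did Snrpa at −0.25 ± 0.05 (adjusted p = 0.00049) and Srsf6 at −0.23 ± 0.04 (adjusted p = 0.00035).

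The other differences depended on a setting. Hnrnpa1 rose less with SQ1 than with pravastatin, with a difference of −0.25 ± 0.06 (adjusted p = 0.0022), and the call was lost under median centring (adjusted p = 0.098) and within the first scan day (−0.09, adjusted p = 0.29). Srsf10 differed by 0.19 ± 0.05 (adjusted p = 0.0035) and Hnrnpf by 0.17 ± 0.04 (adjusted p = 0.0013), and within the first scan day neither passed (adjusted p = 0.33 and, for Hnrnpf, 0.059). Scaling also ended both (adjusted p = 0.33 and 0.081). Srsf5 differed by −0.27 ± 0.08 (adjusted p = 0.018, and 0.32 with scaled arrays), and Hnrnpu by −0.24 ± 0.05 (adjusted p = 0.0019, and 0.16 with scaled arrays). Sf3b4 differed by 0.16 ± 0.06 (adjusted p = 0.044), and that call was lost when any one of SQ1 replicates 3, 4, 5 and 7 or pravastatin replicates 1, 2, 3, 7 and 8 was left out (adjusted p 0.05 to 0.094), and with each other scaling or background setting tried (adjusted p 0.075 to 0.37). Sf3b5 (0.15 ± 0.04, adjusted p = 0.0047) was also higher with SQ1, a call lost with scaling (adjusted p = 0.64). Hnrnph3 (−0.20 ± 0.05, adjusted p = 0.0059), Sf3b1 (−0.16 ± 0.05, adjusted p = 0.018) and Prpf38b (−0.16 ± 0.04, adjusted p = 0.0046) were lower with SQ1. Median centring ended these 3 calls, with adjusted p of 0.071 for Hnrnph3, 0.23 for Sf3b1 and 0.19 for Prpf38b. Scaling ended those of Sf3b1 (adjusted p = 0.31) and Prpf38b (adjusted p = 0.13). With the random replicate block Hnrnpk (adjusted p = 0.0085), Hnrnpm (adjusted p = 0.0063) and Srsf3 (adjusted p = 0.044) also passed, each lower with SQ1.

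**Figure D3:**
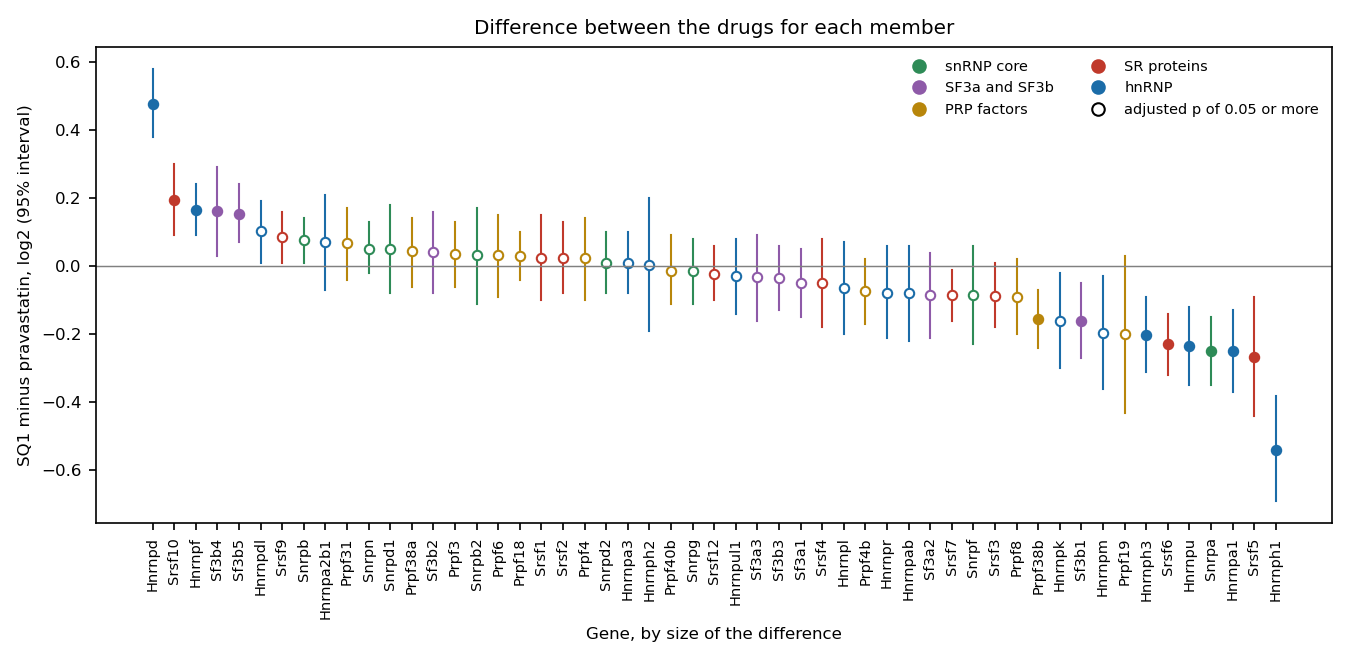
SQ1 minus pravastatin on the log2 scale for 53 of the 54 genes, each with its 95% interval, ordered by size. Filled points passed an adjusted p under 0.05, with Hnrnpd at 0.48 and Hnrnph1 at −0.54 at the ends.

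Several probes for 1 gene allowed a check on the values. Among the 54 genes, 19 had at least 2 kept probes, giving 22 pairs of a dimmer with the brightest probe. For 17 of the 22 pairs the ratios differed by at most 0.1 with SQ1, and likewise for 17 with pravastatin. In a fit over all such pairs of the array, 8 of the 22 pairs differed with SQ1 (36.4%), against 39.7% of all pairs, and 2 with pravastatin (9.09%), against 11.8%. No gene had probes called in opposite directions with 1 drug. For Hnrnph1, Hnrnpk, Sf3b1, Sf3b5 and Snrpd2 the second probe gave SQ1 ratios of −0.39, −0.22, −0.16, 0.22 and 0.32, against −0.40, −0.22, −0.18, 0.24 and 0.26 for the brightest. With pravastatin the second probes of Hnrnph1 (−0.01, adjusted p = 0.88) and Sf3b5 (0.04, adjusted p = 0.17) did not pass. That of Snrpd2 rose by 0.26 ± 0.04 (adjusted p = 0.00016).

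Hnrnpa3 and Srsf3 had a probe that stood apart with SQ1. For Hnrnpa3 the second probe ran from −0.63 to −0.26 on the SQ1 arrays (median −0.56) and the brightest from −0.18 to 0.15, without overlap. The second probe was at −0.52 ± 0.04 and the brightest at −0.03 ± 0.03, a difference of −0.49 ± 0.03 (adjusted p = 7.3e-10) seen on 8 of 8 arrays. Its other probes stood at −0.07 ± 0.11 and 0.03 ± 0.12. With pravastatin the second probe was at 0.07 ± 0.04, higher than the brightest by 0.11 ± 0.03 (adjusted p = 0.024, and 0.27 with median centring). For Srsf3 the second probe ran from −0.57 to −0.34 with SQ1 and the brightest from −0.23 to 0.09, a difference of −0.40 ± 0.04 (adjusted p = 8.1e-07), while with pravastatin they differed by −0.02 ± 0.04 (adjusted p = 0.78). The SQ1 differences of both genes were −0.60 and −0.48 with median centring, and −0.48 and −0.46 with the processed signals. Which transcripts each probe binds was not tested.

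The second probe of Hnrnpa1 also rose, but less. It was at 0.23 ± 0.04 with SQ1 and 0.38 ± 0.04 with pravastatin, below the brightest by −0.24 ± 0.05 (adjusted p = 0.00046) and −0.33 ± 0.05 (adjusted p = 7.9e-05), on 8 of 8 arrays each. Its order between the drugs was that of the brightest probe. For Snrpg both dimmer probes rose with SQ1, by 0.16 ± 0.04 and 0.18 ± 0.04, where the brightest had not passed. Both differed from the brightest with SQ1 (adjusted p = 0.019 and 0.0075), but not with median centring (adjusted p = 0.24 and 0.30). With pravastatin both rose by 0.13 ± 0.04 (adjusted p = 0.0093 and 0.008). There neither differed from the brightest (adjusted p = 0.29 and 0.31). The second probe of Snrpn rose by 0.18 ± 0.03 with SQ1 (adjusted p = 1e-05). It rose by 0.11 ± 0.03 with pravastatin (adjusted p = 0.003). It differed from the brightest with SQ1 (adjusted p = 0.014), but not with median centring (adjusted p = 0.15).

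**Figure D4:**
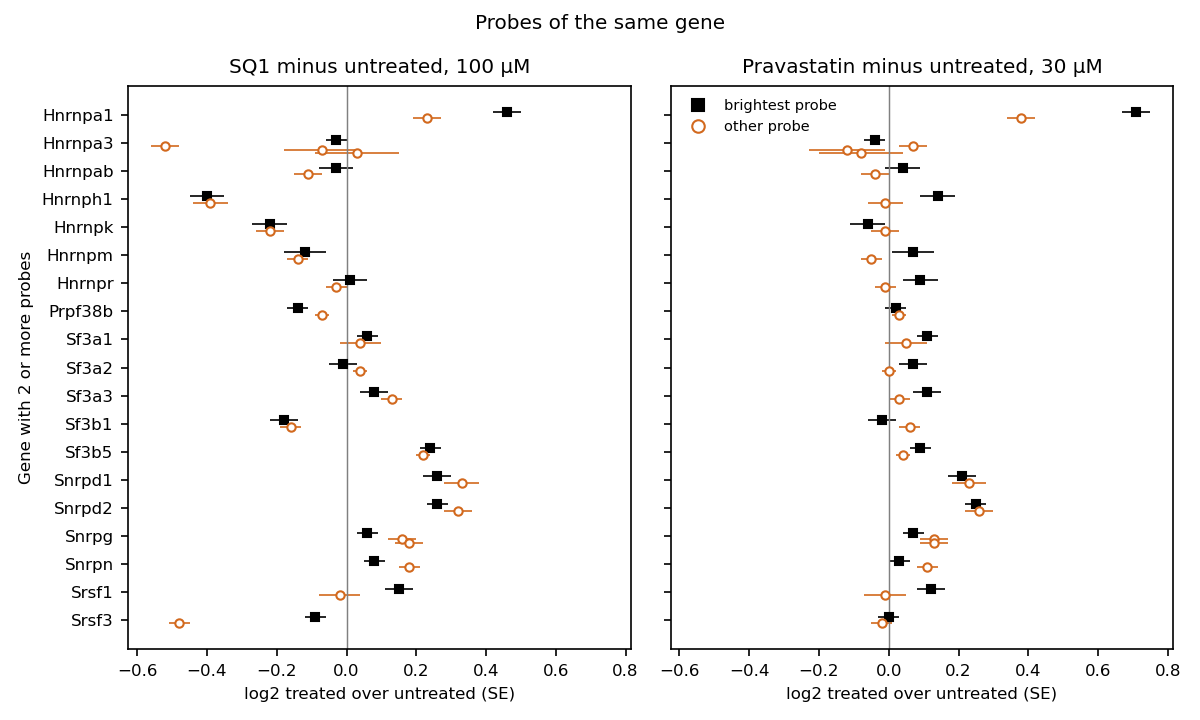
Log2 ratio with its SE for each kept probe of the 19 genes with at least 2 probes, with SQ1 on the left and pravastatin on the right. Squares are the brightest probe of a gene and circles the others. The second probes of Hnrnpa3 and Srsf3 lay at −0.52 and −0.48 with SQ1, apart from the brightest probe.

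Promoters of 4 genes are shown: Hnrnpa1 and Snrpd2, which rose with both drugs, and Hnrnpd and Hnrnph1, which differed most between the drugs. RefSeq promoter windows of 300 bases, 250 of them before the start, were at hand for 52 of the 54 genes (assembly GRCr8), and 27457 windows in all. Both strands were searched for the CCAAT box by its letters. The GC box was searched as GGGCGG and the E-box as CACGTG. The ETS site was searched as ACTTCCGG, and an NRF1 site and a sterol response element by single fixed spellings. Capitals mark the matches.

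Hnrnpa1, chr7:136253868-136254167, + strand: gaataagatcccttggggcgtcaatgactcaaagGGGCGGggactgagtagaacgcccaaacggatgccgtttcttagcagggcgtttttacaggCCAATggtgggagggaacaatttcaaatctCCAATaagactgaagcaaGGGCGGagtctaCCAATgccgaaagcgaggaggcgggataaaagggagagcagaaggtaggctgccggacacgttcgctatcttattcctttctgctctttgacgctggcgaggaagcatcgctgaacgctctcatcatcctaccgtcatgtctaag
Snrpd2, chr1:87926159-87926458, + strand: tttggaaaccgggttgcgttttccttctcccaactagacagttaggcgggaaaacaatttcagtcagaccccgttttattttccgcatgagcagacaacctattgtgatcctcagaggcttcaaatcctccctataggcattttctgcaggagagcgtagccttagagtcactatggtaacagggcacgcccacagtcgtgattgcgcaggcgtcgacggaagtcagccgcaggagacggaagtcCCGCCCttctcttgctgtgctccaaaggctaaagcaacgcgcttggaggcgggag
Hnrnpd, chr14:9919507-9919806, + strand: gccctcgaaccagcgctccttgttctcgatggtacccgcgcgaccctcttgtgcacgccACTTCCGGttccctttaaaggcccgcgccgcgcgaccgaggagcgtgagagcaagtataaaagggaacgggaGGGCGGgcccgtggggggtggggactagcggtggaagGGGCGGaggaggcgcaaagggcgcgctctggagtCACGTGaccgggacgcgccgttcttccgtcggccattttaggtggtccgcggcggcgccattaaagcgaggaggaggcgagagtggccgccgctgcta
Hnrnph1, chr10:35194383-35194682, + strand: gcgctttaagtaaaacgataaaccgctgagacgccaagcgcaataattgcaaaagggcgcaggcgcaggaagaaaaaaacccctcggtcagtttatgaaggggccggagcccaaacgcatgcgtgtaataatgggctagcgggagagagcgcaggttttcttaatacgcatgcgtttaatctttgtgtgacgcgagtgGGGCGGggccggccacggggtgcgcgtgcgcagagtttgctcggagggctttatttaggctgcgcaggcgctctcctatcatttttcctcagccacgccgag

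The Hnrnpa1 window held 3 CCAAT boxes and 2 GC boxes, that of Hnrnpd 2 GC boxes, 1 E-box and 1 ETS site, and those of Snrpd2 and Hnrnph1 1 GC box each. Over the 52 windows, 57.7% held a CCAAT box, against 37.7% of all windows, and 55.8% a GC box, against 34.9%. The ETS site was in 8 windows (15.4%, against 4.01%) and the E-box in 8 (15.4%, against 6.65%). Sf3a2 and Snrpb2 held the NRF1 site (3.85%, against 0.932%). The sterol letters were in none of the 52 windows and in 28 of all windows (0.102%). A match is a description of these letters and does not show that a factor binds there.

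Genes that work with these proteins were examined in 9 lists of 126 genes, none of them a member. With SQ1, 41 rose and 32 fell (57.9% called, against 63.9% of all genes), and with pravastatin 30 rose and 15 fell (35.7%, against 39.1%). Their medians were 0.00 with SQ1 and 0.02 with pravastatin.

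Of 13 snRNP assembly genes, whose products load and modify the Sm ring, 9 rose and 2 fell with SQ1 (median 0.12), and 6 rose and 3 fell with pravastatin (median 0.07). Wdr77, a partner of the arginine methyltransferase that prepares Sm proteins, rose by 0.25 ± 0.04 with SQ1 and by 0.19 ± 0.04 with pravastatin. Snupn, snurportin, which imports the assembled particles, rose by 0.15 ± 0.02 with SQ1 (adjusted p = 1.4e-05, and 0.054 when scaled) and by 0.33 ± 0.02 with pravastatin (adjusted p = 3.2e-09). The genes that fell with SQ1 were Gemin2 and Gemin6, the second named after its values were seen, and Gemin6 fell by 0.28 ± 0.02 (adjusted p = 1.3e-08). Gemin2, a core partner of SMN, fell by 0.31 ± 0.03 with SQ1 (adjusted p = 9.6e-08) and by 0.09 ± 0.03 with pravastatin, where the call was lost with the processed signals (adjusted p = 0.052), median centring (adjusted p = 0.17) and without any one of pravastatin replicates 1, 2, 4 and 5 (adjusted p 0.055 to 0.095).

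Of the 10 LSm genes, whose products form rings related to the Sm ring, 6 rose with SQ1 (median 0.11), and 4 rose and 1 fell with pravastatin (median 0.08). Lsm10, of the U7 particle that processes histone messages, rose by 0.46 ± 0.03 with SQ1 (adjusted p = 1.2e-10) and stood at 0.07 ± 0.03 with pravastatin. Lsm2, of the U6 ring, rose by 0.35 ± 0.03 with SQ1 and by 0.18 ± 0.03 with pravastatin. Lsm1, of the cytoplasmic decay ring, fell by 0.08 ± 0.02 with pravastatin (adjusted p = 0.0045, and 0.26 under median centring).

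Of 8 kinases and phosphatases of SR proteins, 2 rose and 4 fell with SQ1 (median −0.17), and 1 rose and 4 fell with pravastatin (median −0.10). Clk1, a nuclear SR protein kinase, fell by 0.58 ± 0.05 with SQ1 (adjusted p = 3.9e-09) and, with pravastatin, by 0.12 ± 0.05 (adjusted p = 0.043), a call lost under 14 of 29 alternatives. These were median centring (−0.06, adjusted p = 0.31), scaling (adjusted p = 0.20), no dye term (adjusted p = 0.14), no filter (adjusted p = 0.052), the first scan day alone (adjusted p = 0.26) and leaving out SQ1 replicates 2 or 4 or any one of pravastatin replicates 2 to 8 (adjusted p 0.05 to 0.11). Srpk1, the cytoplasmic kinase, rose by 0.35 ± 0.03 with SQ1 (adjusted p = 3.6e-08). Dyrk1a fell by 0.12 ± 0.02 with pravastatin (adjusted p = 0.00015), and stood at −0.04 ± 0.02 with SQ1.

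Other splicing regulators were divided, with 8 of 31 up and 9 down with SQ1, and 8 up and 2 down with pravastatin. Mbnl2, a muscleblind protein, fell by 0.56 ± 0.03 with SQ1 (adjusted p = 1.6e-11), and Celf1, which binds GU-rich RNA and often opposes muscleblind proteins, rose by 0.44 ± 0.03 (adjusted p = 1.3e-09). With pravastatin Esrp2, an epithelial splicing regulator, fell most, by 0.20 ± 0.03 (adjusted p = 9.7e-06).

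The other lists gave mixed counts. Of 21 genes for the tri-snRNP, Prp19 and catalytic complexes, 5 rose and 2 fell with SQ1, and 5 rose with pravastatin. Isy1 rose most with SQ1 (0.42 ± 0.04) and Cwc15 most with pravastatin (0.24 ± 0.04). Of 10 U2 auxiliary genes, 2 rose and 3 fell with SQ1, and 2 rose and 1 fell with pravastatin. Rbm5 fell most with SQ1 (−0.27 ± 0.03) and Ddx46 rose most (0.21 ± 0.05). Of 13 exon junction and export genes, 4 rose and 5 fell with SQ1, and 2 rose and 1 fell with pravastatin. Nxt1, an export cofactor, rose by 0.33 ± 0.05 with SQ1. Of 14 cleavage and polyadenylation genes, 3 rose and 6 fell with SQ1, and 1 rose and 3 fell with pravastatin. Papola, a poly(A) polymerase, fell by 0.32 ± 0.05 with SQ1. Of 6 genes of nonsense-mediated decay, 2 rose and 1 fell with SQ1, and 1 rose with pravastatin. Smg9 rose by 0.30 ± 0.04 with SQ1 and Upf3a by 0.15 ± 0.04 with pravastatin.

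**Figure D5:**
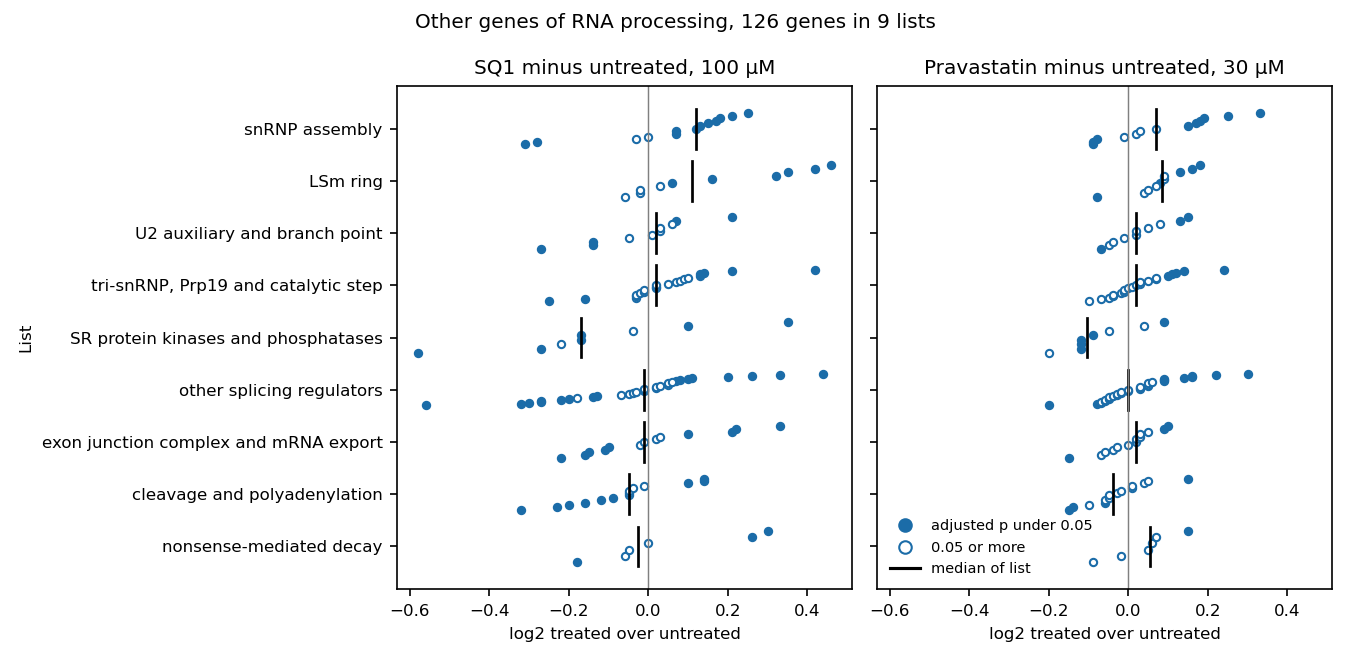
Log2 ratio of SQ1-treated (left) or pravastatin-treated (right) over untreated cells for 126 other genes of RNA processing in 9 lists, 1 point per gene, with a bar at the median of a list. Filled points passed an adjusted p under 0.05. Clk1 at −0.58 and Lsm10 at 0.46 stood out with SQ1.

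The arrays were scanned on 2 days, each with 4 arrays of either drug, and the response could be compared between them. Each day had its own slides and its own untreated culture numbers, so day, slide and culture cannot be told apart. The SQ1 ratio differed between days for 5 of the 54 genes, against 14.9% of all genes, and the pravastatin ratio for 1, against 5.07%. With SQ1, Prpf38a was at 0.09 on the first day and 0.30 on the second (adjusted p = 0.0028), and Snrpd1 at 0.13 and 0.39 (adjusted p = 0.0036). With pravastatin, Srsf4 was at −0.09 on the first day and −0.40 on the second (adjusted p = 0.0023). Hnrnpa1 was at 0.53 and 0.40 with SQ1 (adjusted p = 0.19), and at 0.62 and 0.81 with pravastatin (adjusted p = 0.11). Within the first day alone, 3 of the 54 genes were higher and none lower with pravastatin, with 19 higher and 3 lower within the second. Calls over all genes rose as well, from 3986 within the first day to 8728 within the second.

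Markers of cell types moved in the same samples. All 10 hepatocyte markers fell with SQ1 (median −0.72), and 2 rose and 8 fell with pravastatin (median −0.29). Arrays were divided, 4 above and 4 below zero, for Ttr with SQ1 and for Ttr, Alb, Tf and Apoc3 with pravastatin. Each other hepatocyte marker was below zero on at least 6 of 8 SQ1 arrays. Each of 15 macrophage markers was lower with either drug, at a median ratio of −0.58 with SQ1 and −0.83 with pravastatin. Their mean log2 intensity per array was 10.87 to 11.52 in SQ1-treated and 11.28 to 12.23 in untreated cells, and 10.64 to 11.19 in pravastatin-treated and 11.33 to 12.13 in untreated cells. All 10 stellate cell and fibroblast markers measured fell with SQ1 (median −0.60), and 1 rose and 3 fell with pravastatin. Of 4 endothelial markers 3 fell with SQ1 and 1 with pravastatin, and of 6 cholangiocyte markers 1 rose and 2 fell with SQ1, and 2 rose and 1 fell with pravastatin. All those measured were well above background in all 32 channels, apart from cholangiocyte markers, where 4 of 6 were. The rest of 11 stellate, 8 endothelial and 7 cholangiocyte markers listed did not pass the filter or were not found on the array. In bulk cultures fewer cells of a type and less RNA per cell cannot be told apart, and the part of these shifts in the splicing gene ratios was not tested.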

How the data were processed

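RNA of treated and untreated cultures was hybridised to 16 two-colour Agilent arrays. The authors measured spots with Agilent Feature Extraction 10.7.1.1, per the file headers, and the deposited scanner files give the median signal and median local background of each colour as intensity, beside processed signals that are also intensity. The deposited value table holds log2 ratios of treated over untreated signal, as its match to the processed signals shows. Its columns carry the opposite drug name to the scanner files they match. With its columns assigned to the arrays they matched, it served as an alternative.

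Median signals were used because the files hold no mean signals. They were background-corrected in R 4.3.3 with limma 3.58.1 (normexp, offset 50) and loess-normalised within arrays, where control and outlier spots had weight 0. Intensities per channel are given after loess and Aquantile scaling. Spots of a probe were averaged, and the brightest probe kept in at least 6 of 32 channels stood for a gene. Array medians were 588 to 663 in green and 790 to 1076 in red, with no saturated spot, and the number of arrays limits the precision. A model with a term per drug and a dye term was fitted over all genes, with two-sided tests and Benjamini-Hochberg adjusted p-values called under 0.05. RefSeq (GRCr8) gave symbols to 17998 of 30367 probes, while the file headers name build rn4. The fit was tested on simulated data.

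The members, lists and tests were chosen with earlier results of these data known. The fit of differences between probes, the comparison of scan days and the 1.2-fold rule were added after the data were seen. Members were named as the 5 largest rises and falls per drug among genes called with the same sign on 8 of 8 arrays, the 4 largest differences between drugs each way, and genes listed by role (among them Hnrnpa1, Hnrnpl, Sf3b1, Prpf8 and Srsf1 to Srsf3). Single values of 1 member and 1 listed gene are not reported here. Other members named were chosen after their values were seen. For the other lists the largest called rise or fall is named. Same-numbered arrays of both drugs share a control number in their names, and their residuals correlated at 0.139 to 0.629. For SQ1 replicates 2, 7 and 8 a pravastatin array of another number correlated better. Those values were 0.364, 0.391 and 0.328, against 0.343, 0.346 and 0.139 for the same number. Replicate number was used as a block in alternatives only. Other alternatives were the processed signals, median centring, scaling between arrays, filters, the mean of a gene's probes, scan day, no dye term and leaving out each array.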

Additional observations from a re-analysis of the deposited data

Results flagged for a closer look

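Among 108 groups of 8 array ratios (54 genes with each drug), 10 held an array set apart from the other 7 by a gap above Dixon's 95% critical value for the range of 8, a mark that chance gives in about 1 of 20 groups. With SQ1, replicate 8 was lowest for Hnrnph2 (−0.42, next −0.05), Hnrnph3 (−0.35, next −0.14), Prpf31 (−0.19, next 0.02) and Prpf38b (−0.35, next −0.15). SQ1 replicate 1 was highest for Hnrnpr (0.37, next 0.07), Prpf4 (0.36, next 0.08) and Snrpb2 (0.50, next 0.24). With pravastatin, replicate 1 was highest for Prpf4 (0.33, next 0.04) and lowest for Prpf6 (−0.27, next −0.04), and replicate 7 was highest for Snrpg (0.33, next 0.11).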

How the results depend on the processing

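Counts under 29 alternatives were compared with those reported. Counts of genes called moved most for pravastatin within scan day 1 (3986 genes), and for the difference between drugs within scan day 1 (4804) and with arrays scaled to 1 spread (4313), against 7965 and 7760. For SQ1, 6 genes were lower with median centring, and 8 were higher and 6 lower with scaled arrays. For pravastatin, 1 gene was lower with the processed signals, median centring, no filter or the value table, 4 with scaled arrays or the random replicate block and 5 with the fixed replicate block. Without the dye term 8 were higher, and within scan day 1 there were 3 higher and 0 lower. For the difference between drugs, median centring gave 5 lower, scaled arrays 1 higher and 5 lower, scan day 1 also 1 higher and 5 lower, the random block 8 higher and the fixed block 8 higher and 14 lower. Leaving out each array gave 13 to 17 genes higher and 14 to 17 lower with SQ1 (12356 to 13069 genes called), 6 to 16 higher and 1 to 4 lower with pravastatin (6926 to 8095), and 4 to 6 higher and 9 to 11 lower for the difference (7087 to 7862).

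Directions turned with median centring for Hnrnpa3 (0.15), Hnrnpab (0.19) and Srsf3 (0.01) with SQ1, and with the mean of a gene's probes for Papola in the difference between drugs (0.01). The causes were not tested. Under the replicate block the call of Srsf12 with pravastatin was lost (random, adjusted p = 0.071), and no other of these calls. Genes gained with SQ1 were Hnrnpm (both forms) and Hnrnpdl, Hnrnpul1, Prpf31, Sf3a3 and Snrpg (fixed). With pravastatin they were Hnrnpl and Sf3b3 (both) and Hnrnpm, Hnrnpr, Hnrnpul1, Prpf19, Sf3a2, Sf3b2, Snrpg and Srsf6 (fixed). For the difference they were Hnrnpdl, Hnrnpk, Hnrnpm, Snrpb, Srsf3, Srsf7 and Srsf9 (both) and Prpf19 (fixed). The median over all genes stayed within 0.03 of zero under each scaling. Most ratios here are small, so that calls near the threshold rest on few arrays.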
